A study of Mus musculus with 6 samples.

Results

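Collagen genes were followed in Sertoli cells of mice with and without a conditional deletion of Rb1, the retinoblastoma gene. A gene was taken as a collagen when its symbol in the platform's annotation was exactly Col, a number, a and a number, such as Col4a1. This gave 41 genes with 91 probes, of 19057 genes with a symbol and 45281 probes on the array. Both groups were 6 weeks old, of the strain C57B6J/129SvEv, carried Rb1 flox/- and held Sertoli cells marked by Sox9-GFP and sorted by fluorescence. The 3 cKO samples also carried Amh-Cre, a recombinase driven by the promoter of the anti-Mullerian hormone gene, which is active in Sertoli cells. The 3 Control samples carried no Cre and so kept the floxed copy of Rb1 beside the null copy. Because every cKO sample and no Control sample had Cre, what Cre alone does and what Rb1 loss does cannot be told apart. No label states that the 3 arrays of each group stem from different mice, and the p-values therefore reflect a spread between samples that could be technical.

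Collagens are secreted proteins whose chains wind into triple helices in groups of 3 and then assemble into fibrils, networks, filaments or membrane-bound stalks. Each chain has its own gene, and a helix can only be built from chains that fit together. In the testis, the seminiferous tubule is wrapped in a basement membrane rich in type IV collagen, to which Sertoli cells attach from the inside and peritubular myoid cells from the outside. Fibrillar collagens such as type I lie further out, in the tubule wall and the interstitium.

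None of the 40 tested collagen probes passed the adjusted threshold of 0.05 in either direction. The clearest difference was in type IV collagen. At their brightest probes, Col4a1, Col4a2 and Col4a5 were higher on every cKO array than on any Control array. Such a separation held for 8.04% of all tested probes. The group means of these genes differed by 1.51 to 2.12 log2 units. Probes for Col4a3 and Col4a4 had values at or below Control on average, and Col4a6 was not tested. The other collagens had smaller, mostly positive differences, beside 57.0% positive among all tested probes. Their size, and for several genes also their direction, depended on the arrays at either extreme of the series.

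Of the 6 arrays, cKO replicate 1 and Control replicate 3 stood apart, at -113.9 and 110.2 on a first principal component holding 58.9% of the variance. The same arrays had the lowest and highest share of probes detected, 43.0% on cKO replicate 1 and 53.5% on Control replicate 3. The median probe was read on 43 or 44 beads. The deleted gene was lower on every cKO array than on any Control array for both of its probes, by -1.22 ± 0.32 (SE, n = 3 per group, adjusted p = 0.399) and -0.98 ± 0.34 (adjusted p = 0.668). Neither difference passed the adjusted threshold, and where these Rb1 probes lie relative to the floxed part was not examined. All 8 Sertoli markers on the array were tested and none was called; 6 were above background on all 6 arrays, and Trf and Amh on all but cKO replicate 1. Germ cell transcripts were also bright on every array, Prm1 at 14.72 to 14.90 log2 units.

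Many collagens could not be measured in these cells. Of the 91 probes, 32 were above background on all 6 arrays, 40 were above background on at least 3 arrays and entered the tests, and 40 were above background on none. Shares over the whole array were near these: of 45281 probes, 17222 were detected on all 6 arrays, 21805 were tested and 18318 were detected on none. A probe counted as above background on an array when its deposited detection score exceeded 0.95. The tested probes covered 28 of the 41 genes, and 22 genes had a probe detected on all 6 arrays. No probe was above background on any array for 8 genes: Col1a2, the partner of Col1a1 in type I collagen, Col5a2 and Col5a3 of type V, Col6a5 and Col6a6 of type VI, Col10a1, the collagen of hypertrophic cartilage, Col13a1 and Col19a1. A further 5 genes had no probe above background on more than 1 array, which were Col4a6, Col6a2, Col8a2, Col15a1 and Col22a1. Several other genes had probes on both sides: 1 probe of Col3a1 was detected on 3 arrays and its other probe on none, and Col9a1, Col11a1 and Col25a1 each had probes detected on 6 arrays and on 0. A probe below background gives no level, so these genes may be transcribed below what the array can show. Col6a3, Col12a1 and Col20a1, which are in the RefSeq gene table, had no probe under that symbol and were not analysed here.

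**Figure D1:**
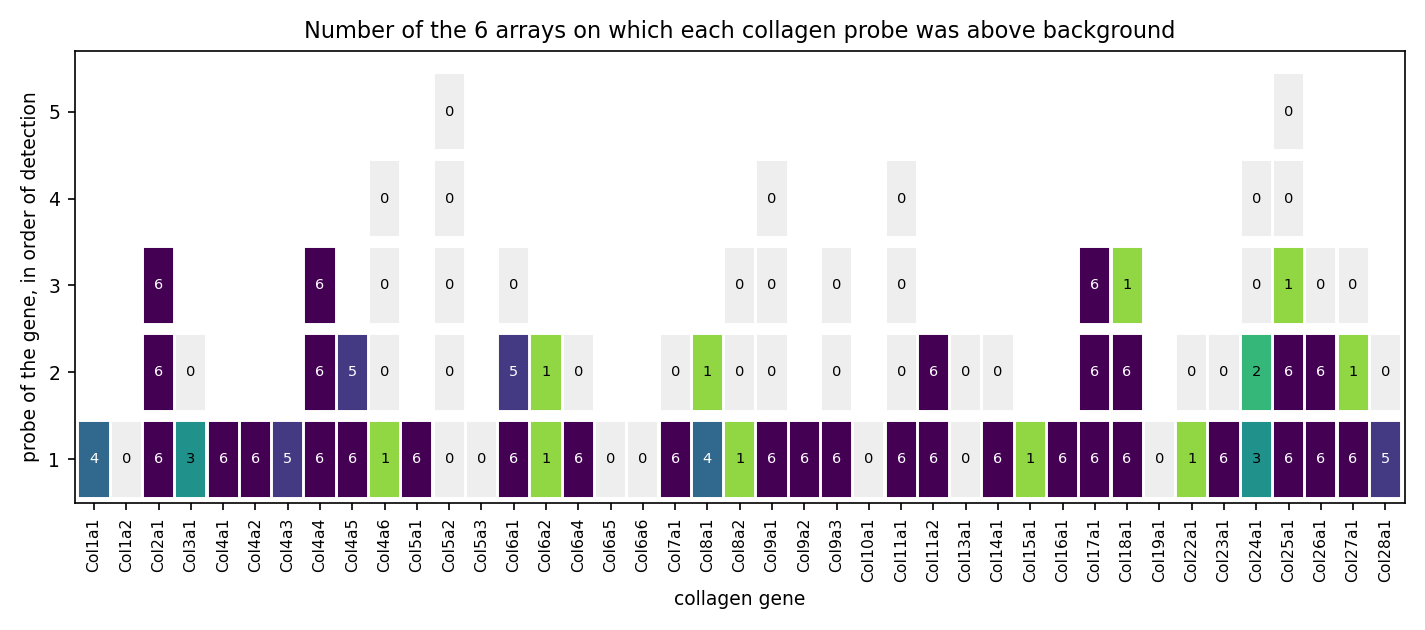
Each cell is 1 of the 91 collagen probes, in columns by gene and stacked from most to least often detected; the number and shade give on how many of the 6 arrays the probe was above background. Col2a1, Col4a4 and Col17a1 have 3 probes detected on all 6 arrays, while all 5 probes of Col5a2 are at 0.

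The 40 tested probes had a median difference, cKO minus Control, of 0.30 log2 units, against 0.08 over all 21805 tested probes. The adjusted threshold was passed by 0 of 40, the smallest adjusted p being 0.208 for Col4a1. Over all tested probes, 0.142% passed with higher values in cKO and 0% with lower values. That background of 31 calls fell to 0 with the replicate number as a block. A positive difference was seen for 31 of the 40 probes, beside 57.0% of all tested probes. The groups did not overlap, with every cKO array higher, for 7 of 40 probes (8.04% of all tested probes), and did not overlap in the other direction for 0 (4.01%). At an unadjusted p under 0.05, 9 of 40 probes were higher in cKO (4.63% of all) and 0 lower (1.76%). Probes detected only on cKO arrays entered the test through the group in which they were high. Among the 32 collagen probes detected on all 6 arrays, 26 had a positive difference, 5 did not overlap with cKO higher and 6 were higher at an unadjusted p under 0.05. Over all probes detected on all 6 arrays, these shares were 60.3%, 7.54% and 4.22%.

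The positive values were fewer when the arrays that stood apart were both left out. With all 6 arrays, 22 of the 28 genes had a positive difference at their brightest tested probe, with a median of 0.36. Without cKO replicate 1 and Control replicate 3, 13 of 28 were positive and the median was -0.021, against -0.028 for all tested probes. These arrays also held the highest cKO and the lowest Control mean of the collagen genes, so leaving them out had to make the difference smaller. With any single array left out, the median of the tested collagen probes was 0.11 to 0.46. For the fibrillar collagens the median went from 0.39 with 7 of 8 genes positive to -0.09 with 2 of 8. Type IV collagen kept 3 of 5 tested genes positive. Its median, which was the value of Col4a1 in both cases, was 1.19, from 1.51 with all arrays. Its genes shared no direction: over its 8 tested probes with all arrays, 4 differences were positive and 4 negative, with a median of 0.68.

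**Figure D2:**
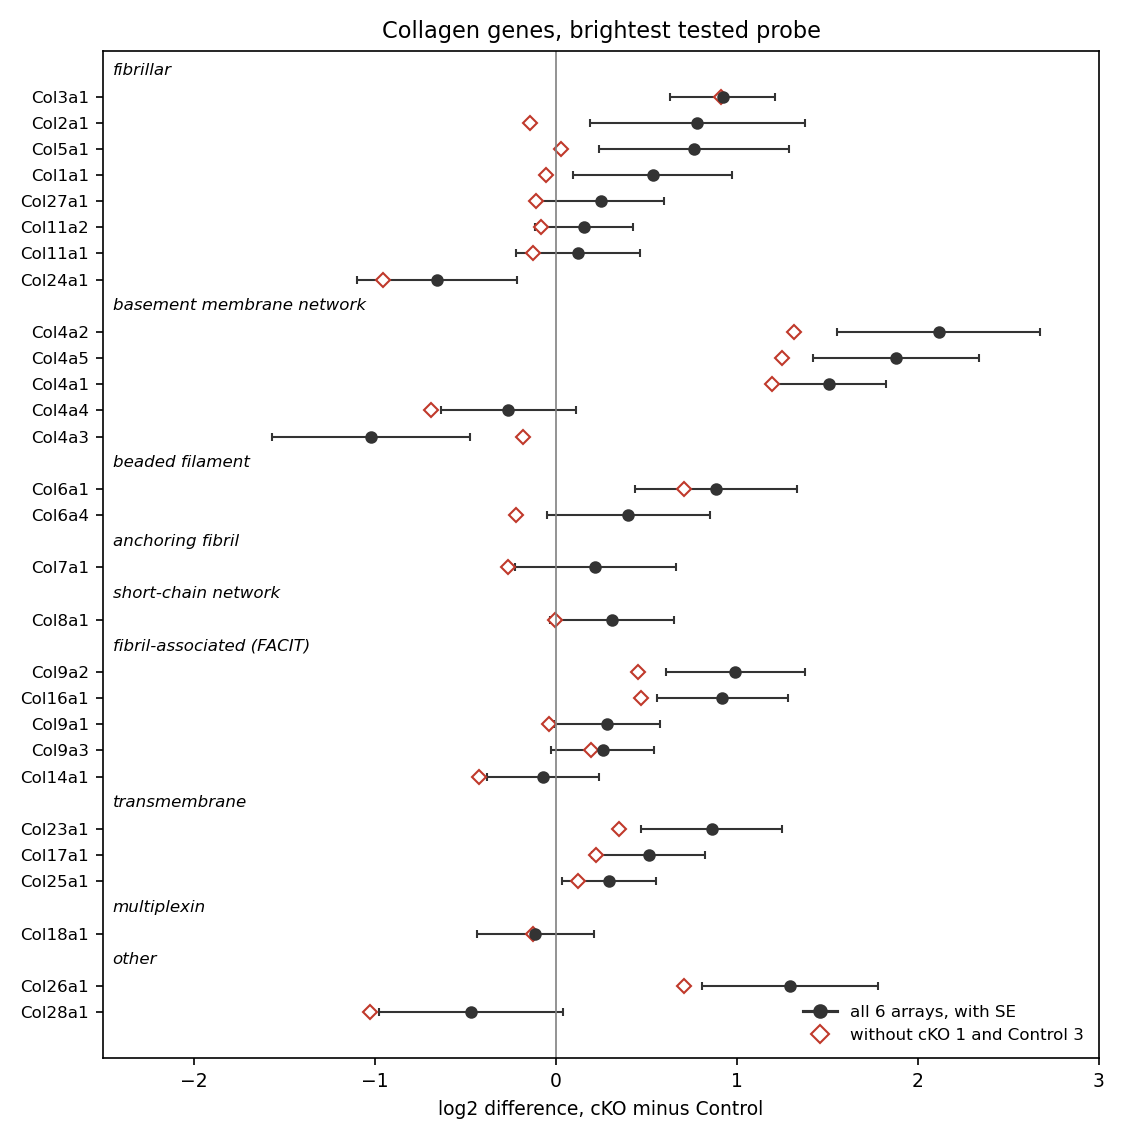
Horizontal axis: difference between group means in log2 units, cKO minus Control, for the brightest tested probe of each of 28 collagen genes, grouped by structural class. Filled points with bars are the estimate and SE from all 6 arrays, open diamonds the estimate without cKO replicate 1 and Control replicate 3; Col4a1, Col4a2 and Col4a5 stay above 1 in both, while the diamonds of most fibrillar collagens lie at or below 0.

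Type IV collagen forms the sheet-like network of basement membranes from chains encoded by 6 genes arranged in pairs, each pair head to head on 1 chromosome. The products of Col4a1 and Col4a2 make the network found in nearly all basement membranes. Those of Col4a3, Col4a4 and Col4a5 make a second network, known from the glomerulus and also from the tubule wall of the testis, and that of Col4a5 also combines with that of Col4a6. In the RefSeq annotation of GRCm38.p6, Col4a1 and Col4a2 start 21 bases apart on opposite strands of chromosome 8, and Col4a5 and Col4a6 start 1343 bases apart on opposite strands of the X chromosome. The starts of both pairs are shown because Col4a1 and Col4a2 were higher together on the cKO arrays, whereas Col4a5 was higher and Col4a6 had 1 probe above background on 1 Control array and no other detection. For the first pair the stretch from one annotated start to the other is printed, chr8:11312805-11312826 on the plus strand, with the GC box GGGCGG in capitals. The annotated transcripts of Col4a1 and Col4a2 overlap there, so this stretch lies inside both. For the second pair the stretches are those upstream of each gene, chrX:141475169-141475369 on the plus strand for Col4a5, with a CCAAT box in capitals, and chrX:141474096-141474326 on the minus strand for Col4a6, with none of the motifs searched. The stretches of Col4a5 and Col4a6 end before their annotated starts. In the whole windows of 300 bases around the starts, Col4a5 and Col4a6 each had 1 GC box as well, Col4a1 had 1 and Col4a2 had 3. In the same windows Col4a1, Col4a2 and Col4a5 each had 1 CCAAT box and Col4a6 had 0.
Col4a2 and Col4a1: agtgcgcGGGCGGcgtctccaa
Col4a5: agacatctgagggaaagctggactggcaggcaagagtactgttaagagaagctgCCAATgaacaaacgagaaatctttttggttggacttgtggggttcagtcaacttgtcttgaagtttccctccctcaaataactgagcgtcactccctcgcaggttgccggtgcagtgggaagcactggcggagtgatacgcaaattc
Col4a6: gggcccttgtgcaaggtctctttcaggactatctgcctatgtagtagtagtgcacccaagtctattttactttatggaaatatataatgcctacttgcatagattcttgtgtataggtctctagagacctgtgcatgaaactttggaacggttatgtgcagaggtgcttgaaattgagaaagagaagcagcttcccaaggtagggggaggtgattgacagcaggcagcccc

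Windows from 250 bases before to 50 bases after each annotated start were searched on both strands, and 35 of the 41 collagen genes had such a window, 38 windows in all. The GC box GGGCGG was in 60.5% of the collagen windows and in 35.7% of all windows of the same length. CCAAT was in 34.2% of collagen windows against 37.4% of all, TATAAA in 13.2% against 13.6%, and the AP-1 sequence TGANTCA in 2.63% against 7.81%. The E2F sequences TTTCGCGC and TTTGGCGC, of interest because the Rb1 protein binds E2F factors, were in 0% of collagen windows and in 0.323% and 0.514% of all windows. A match or its lack describes these letters only.

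Col4a1 had normalised log2 intensities of 10.29, 10.09 and 10.20 on cKO replicates 1 to 3 and of 8.76, 9.13 and 8.15 on Control replicates 1 to 3. Every cKO array lay above every Control array, and the cKO values were close to each other. The difference was 1.51 ± 0.31 (SE), a 2.85-fold higher intensity, with an adjusted p of 0.208. As deposited, before any scaling, the intensities were 1348, 1265 and 1165 on the cKO arrays and 462, 514 and 348 on the Control arrays, with a standard error between beads of 9.60 to 25.5. The bead error covers the reading of 1 array and not the spread between samples. Without the arrays that stood apart the difference was 1.19. In bulk RNA, fewer cells of a type and less RNA per cell cannot be told apart, and this holds for every gene described here.

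Col4a2, whose chain pairs with that of Col4a1, read 9.36, 8.11 and 9.06 on the cKO arrays and 7.54, 7.04 and 5.60 on the Control arrays. The groups did not overlap, although Control replicate 3 was far below the other Controls. The difference was 2.12 ± 0.56, or 4.34-fold, with an adjusted p of 0.399. It was 1.32 without cKO replicate 1 and Control replicate 3.

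Col4a5 read 9.43, 8.07 and 7.79 on the cKO arrays and 6.81, 6.64 and 6.21 on the Control arrays at its brighter probe. The groups did not overlap, and cKO replicate 1 was the highest by more than 1 log2 unit. The difference was 1.88 ± 0.46, or 3.68-fold, with an adjusted p of 0.336, and it was 1.25 without the arrays that stood apart. The second probe read 7.03, 6.27 and 6.37 on the cKO arrays against 5.03, 5.42 and 4.90 on the Control arrays, of which 2 were above background. That probe also separated the groups, with a difference of 1.44 and an adjusted p of 0.242, or 1.07 without the 2 arrays.

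Col4a3 ran the other way in value, at 4.74, 5.14 and 6.13 on the cKO arrays and 5.87, 5.79 and 7.42 on the Control arrays. The groups overlapped, and cKO replicate 1 was not above background. The difference was -1.02 ± 0.55, with an adjusted p of 0.766. It was negative within each of the 3 pairs of arrays sharing a replicate number, but shrank to -0.18 without cKO replicate 1 and Control replicate 3.

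Col4a4, the partner of Col4a3, had 3 probes detected on all 6 arrays, and the groups overlapped at each of them. Its brightest probe read 8.44, 8.26 and 7.35 on the cKO arrays and 8.37, 8.58 and 7.88 on the Control arrays, a difference of -0.26 ± 0.37 with an adjusted p of 0.830. The other probes differed by -0.55 and -0.08. The value at the brightest probe was 0.07 without cKO replicate 3, so no direction can be given. The 4 probes of Col4a6 were all outside the tests, 3 detected on no array and 1 on a single array.

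**Figure D3:**
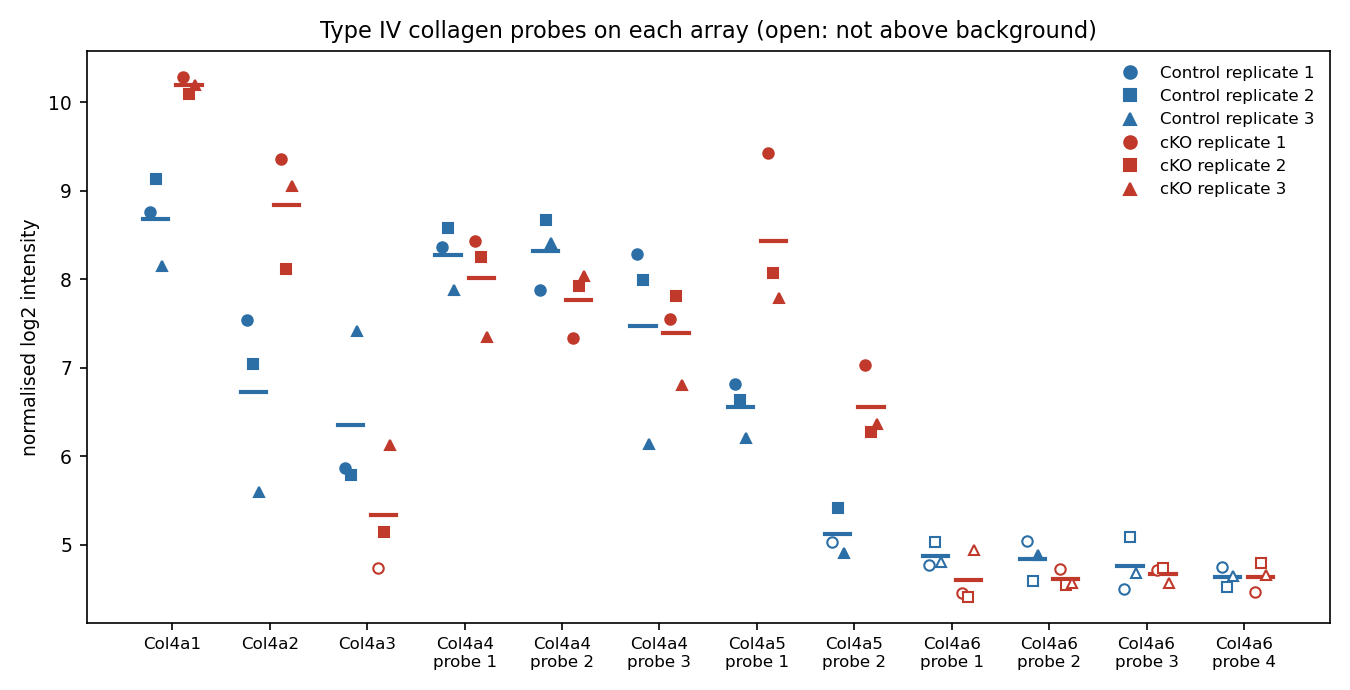
Vertical axis: normalised log2 intensity of the 12 type IV collagen probes on each array, Control in blue and cKO in red, with symbols for the replicate number, bars for the group means and open symbols for values not above background. Red lies above blue without overlap for Col4a1, Col4a2 and both Col4a5 probes, the groups overlap for Col4a3 and Col4a4, and Col4a6 stays near background.

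Among the fibrillar collagens, which form the banded fibres of connective tissue, 8 of 11 genes were tested and none was called. Col3a1, the main chain of the thin reticular fibres around vessels and tubules, was above background on 3 cKO arrays and on 0 Control arrays. It read 5.43, 5.18 and 5.98 on the cKO arrays and 4.62, 4.63 and 4.57 on the Control arrays. The groups did not overlap, and all values were near the bottom of the range. Against the lowest value at which a probe was detected on each Control array, it was at least 1.41-fold higher, and the fitted difference was 0.92 with an adjusted p of 0.573. Its deposited intensity was 69.2 to 95.4 on the cKO arrays and 48.0 to 51.0 on the Control arrays. The probe entered the test only through the cKO arrays, in which it was high. Its separation, fold and p are therefore no independent support for a difference. The other Col3a1 probe was above background on no array, and its group means were 0.03 apart.

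Col1a1, the major chain of type I collagen, read 6.28, 5.30 and 5.48 on the cKO arrays and 5.93, 4.96 and 4.56 on the Control arrays. The groups overlapped, and only 1 Control array was above background. The difference was 0.54 ± 0.44, and -0.06 without the arrays that stood apart. Col2a1, the cartilage collagen and a known target of Sox9, had 3 probes detected on all 6 arrays with differences of 0.78, 0.35 and 0.10, none separating the groups. At the brightest of them it was 8.54, 7.88 and 7.66 on the cKO arrays and 8.22, 7.61 and 5.90 on the Control arrays. Control replicate 1 lay within the cKO range and the other Control arrays below it, and the difference was -0.14 without cKO replicate 1 and Control replicate 3. Col5a1, which sets the diameter of type I fibrils, differed by 0.76 ± 0.53, and by 0.03 without those arrays. Col27a1, Col11a2 and Col11a1 had differences of 0.12 to 0.25 at their brightest probe, and Col24a1 one of -0.66 ± 0.44 at a probe detected on 3 arrays.

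Type VI collagen builds beaded microfilaments next to basement membranes, and 2 of its 5 genes on the array were tested. Col6a1 read 6.64, 5.93 and 7.22 on the cKO arrays and 6.43, 5.32 and 5.38 on the Control arrays. The groups overlapped because Control replicate 1 was above cKO replicate 2. The difference was 0.88 ± 0.45 with an adjusted p of 0.766, or 0.71 without the arrays that stood apart. The second probe differed by 0.94. Both Col6a1 probes were higher in cKO within all 3 pairs of arrays sharing a number. Col6a4 differed by 0.40 ± 0.45 with overlapping groups. The 2 probes of Col6a2 were each detected on 1 array. Col7a1, the chain of the anchoring fibrils of skin, differed by 0.22 ± 0.44. Col8a1, a short-chain network collagen of vessel walls, differed by 0.31 ± 0.34 at a probe detected on 4 arrays.

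The fibril-associated collagens sit on the surface of larger fibrils and do not form fibrils themselves. Of their 7 genes on the array, 5 were tested at 1 probe each, and 2 had groups that did not overlap, with cKO higher (8.04% of all tested probes). Col16a1 read 11.68, 11.10 and 11.16 on the cKO arrays and 11.02, 10.28 and 9.88 on the Control arrays. The gap between the lowest cKO array and the highest Control array was small, and the difference of 0.92 ± 0.36 had an adjusted p of 0.747. Col9a2, a chain of the type IX collagen that coats cartilage fibrils, read 7.13, 6.24 and 5.82 on the cKO arrays and 5.56, 5.57 and 5.09 on the Control arrays. Every cKO array was higher, with a difference of 0.99 ± 0.38 and an adjusted p of 0.732. Without cKO replicate 1 and Control replicate 3, the differences were 0.47 for Col16a1 and 0.46 for Col9a2. The partner chains of Col9a2, Col9a1 and Col9a3, differed by 0.28 ± 0.29 and 0.26 ± 0.28, and Col14a1 by -0.07 ± 0.31, all with overlapping groups.

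Of the transmembrane collagens, 3 of 4 genes were tested, and no probe separated the groups. Col23a1 read 6.84, 6.35 and 6.24 on the cKO arrays and 6.30, 5.58 and 4.97 on the Control arrays. Control replicate 1 reached into the cKO range, and the difference was 0.86 ± 0.39 with an adjusted p of 0.766, or 0.35 without the arrays that stood apart. Col17a1, a component of hemidesmosomes, had 3 probes with differences of 0.41 to 0.63, and Col25a1 had 2 with 0.05 and 0.29. Col18a1, a basement membrane proteoglycan whose end is released as endostatin, was the single tested multiplexin, and its 2 tested probes differed by -0.11 and -0.30. It read 12.62, 12.38 and 12.03 on the cKO arrays and 11.94, 12.72 and 12.72 on the Control arrays, with no separation.

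Of the collagens outside these classes, Col26a1 had the largest value, at 7.76, 6.84 and 6.54 on the cKO arrays and 6.66, 5.31 and 5.29 on the Control arrays. Control replicate 1 lay above cKO replicate 3, so the groups overlapped. The difference was 1.29 ± 0.49 with an adjusted p of 0.716, it was positive within all 3 pairs sharing a number, and it was 0.71 without the arrays that stood apart. The second Col26a1 probe differed by 0.17, so the probes of this gene disagreed in size. Col28a1 differed by -0.47 ± 0.51. Over all tested collagen probes, 17 of 40 were higher in cKO within all 3 pairs (26.7% of all tested probes) and 2 were lower (15.3%), the lower ones being the probe of Col4a3 and 1 of the 3 probes of Col4a4.

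Proteins that make, cut, cross-link, bind or degrade collagen were read from lists of known partners, at the brightest tested probe of each gene. Of 16 tested hydroxylases and chaperones of the 19 on the array, 0 were called, and the median difference was 0.26 against 0.08 over all tested probes. Without cKO replicate 1 and Control replicate 3 it was 0.07. Serpinh1, the collagen chaperone of the endoplasmic reticulum, read 8.53, 7.67 and 8.18 on the cKO arrays and 7.27, 6.96 and 6.48 on the Control arrays. The groups did not overlap, with a difference of 1.23 ± 0.34 and an adjusted p of 0.440. Fkbp14, a prolyl isomerase, differed by -0.90 with non-overlapping groups, and Pdia3, a disulfide isomerase, and Mia3, which loads procollagen into transport carriers, differed by -0.98 and -1.10 with overlap. Of 4 tested procollagen proteinases and enhancers of 9 on the array, 0 were called and the median was 0.59, or 0.21 without those arrays. Bmp1, which removes the C-terminal propeptide of fibrillar procollagens, read 9.68, 8.51 and 8.28 on the cKO arrays and 7.22, 7.34 and 6.60 on the Control arrays. The groups did not overlap, with a difference of 1.77 ± 0.43 and an adjusted p of 0.336, while its enhancers Pcolce and Pcolce2 differed by 0.88 and 0.30 with overlap and Mep1b by 0.03.

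Among the enzymes that cross-link matrix proteins, 4 of 7 were tested, and 1 was called (0.142% of all tested probes). Their median was 0.67, or 0.33 without cKO replicate 1 and Control replicate 3. Tgm2, a transglutaminase, read 12.35, 11.32 and 11.54 on the cKO arrays and 8.63, 8.40 and 8.78 on the Control arrays. Tgm2 rose by 3.13 ± 0.34 log2 units, 8.77-fold, with an adjusted p of 0.0342. That call was lost with the replicate number as a block (adjusted p = 0.0835) and when any single array was left out (0.0627 to 0.235). Of the lysyl oxidase family, which cross-links collagen and elastin, Loxl1 differed by 0.74 with non-overlapping groups and an adjusted p of 0.731 and Loxl4 by 0.59 with overlap, and Lox and Loxl3 were detected on no array. Pxdn, the peroxidase that forms the sulfilimine bonds of type IV collagen, differed by 0.09 ± 0.26.

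Of 6 tested collagen receptors of 12 on the array, 0 were called, and the median difference was 0.40, or 0.18 without cKO replicate 1 and Control replicate 3, with all groups overlapping. Itga11 differed by 0.95 (0.51 without cKO replicate 1), and Ddr1, a receptor kinase for collagen, by 0.59 (0.17 without Control replicate 3). Itgav differed by 0.65 (0.21 without cKO replicate 1) and Itgb1 by 0.21. Of 9 tested collagen-binding matrix proteins of 14, 0 were called, and the median was 0.20, or 0.58 without those arrays. Tgfbi read 9.61, 8.69 and 9.18 on the cKO arrays and 7.78, 6.85 and 6.10 on the Control arrays, a difference of 2.25 ± 0.47 with no overlap and an adjusted p of 0.208. The small proteoglycans Bgn and Prelp also separated the groups, by 1.48 and 1.35 with adjusted p of 0.396 and 0.390, and Dcn differed by 0.93 with overlap. Nid1, which links laminin to type IV collagen and was chosen after its values were seen, separated the groups the other way, by -0.68 with an adjusted p of 0.766, and Sparc, a collagen-binding glycoprotein chosen likewise, differed by -0.92 with overlap. Of 7 tested collagen-degrading proteases of 12, 0 were called, and the median was 0.43, or 0.37 without those arrays. Mmp9, a gelatinase that also cleaves type IV collagen, read 7.09, 6.66 and 6.46 on the cKO arrays and 5.40, 5.29 and 4.87 on the Control arrays, a difference of 1.55 ± 0.29 with no overlap and an adjusted p of 0.152. The cathepsins Ctsk and Ctsb differed by 1.17 and 0.52 without overlap, and Mmp2 by 0.43 with overlap.

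Markers of other testis cells also differed in value between the groups. The mean of the 28 collagen genes, set to 0 for the Control mean, was 0.82, 0.32 and 0.33 on the cKO arrays and 0.28, 0.12 and -0.40 on the Control arrays. Of 11 endothelial markers on the array 8 were tested, and 7 of these had every cKO array above every Control array, as did 8.04% of all tested probes. Their median difference was 1.20, and their summed level on the linear scale was 1716 to 4101 on the cKO arrays against 397 to 727 on the Control arrays. Robo4 alone made up 57.9% to 68.6% of that sum on the cKO arrays, and without it the sums were 723 to 1286 against 319 to 566. Robo4, an endothelial receptor, was higher by 3.69 ± 0.47 on the cKO arrays (adjusted p = 0.0514), and Kdr was detected on no array. All 7 tested peritubular myoid markers of 10 had positive differences, with a median of 0.91 and a sum of 11819 to 21195 against 5629 to 10536, while Cnn1, Tagln and Lmod1 were detected on no array. Acta2, smooth muscle actin, differed by 1.81 ± 0.41 with an adjusted p of 0.278. Neither list lost its direction without cKO replicate 1 and Control replicate 3, each at a median of 0.69. Endothelial and myoid cells are both known to make type IV collagen. The part of these cells, and of the Sertoli cells themselves, in the type IV values was not tested.

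Of 5 tested interstitial fibroblast markers of 8, 0 separated the groups, with a median of 0.27, a sum of 1005 to 1901 on the cKO arrays against 914 to 1377 on the Control arrays, and Dpt on no array. The median of this list was -0.24 without the arrays that stood apart. The 5 tested Leydig cell markers of 6 had a median of 1.26, or 1.09 without those arrays. Of these markers, 4 had positive differences with all arrays and 3 without those arrays. The sum over the list was 2326 to 8616 on the cKO arrays against 1196 to 2982 on the Control arrays. Only Star separated the groups (8.04% of all tested probes). Star was above background on 3 cKO arrays and 0 Control arrays, so it entered the test only through the cKO arrays. Hsd3b1 was above background on no array. For 7 tested markers of macrophages and leukocytes, of 11, the median was 0.70, or 0.63 without the arrays that stood apart. Positive differences were seen for 6 of them, 4 without overlap (8.04% of all tested probes). Cd74, H2-Aa and H2-Ab1 differed by 1.70, 1.35 and 1.54 without overlap, with adjusted p of 0.143, 0.571 and 0.715. The sum was 3211 to 4475 against 4879 to 5662, and most of it came from Mrc1, by far the brightest of the list. Mrc1 was the only marker of this list with a negative difference, of -0.83 with an adjusted p of 0.763. Every cKO array lay below every Control array for Mrc1, as for 4.01% of all tested probes. Ptprc and Itgam were detected on no array. The 5 tested germ cell markers of 6 had a median of 0.44, or 0.19 without the arrays that stood apart, and sums of 54894 to 56950 against 51749 to 59351. All 8 Sertoli markers had negative differences, with a median of -0.41, or -0.39 without the arrays that stood apart. Their sums were 38610 to 42398 against 41833 to 49145. Dhh and Sox9 separated the groups, with cKO lower (4.01% of all tested probes), by -0.52 and -0.39, each with an adjusted p of 0.766. The Sertoli differences ran from -0.07 for Cldn11 to -2.54 for Trf, which was not above background on cKO replicate 1. These markers differed alongside the collagen values, and the part of each cell type in the collagen values was not tested.

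**Figure D4:**
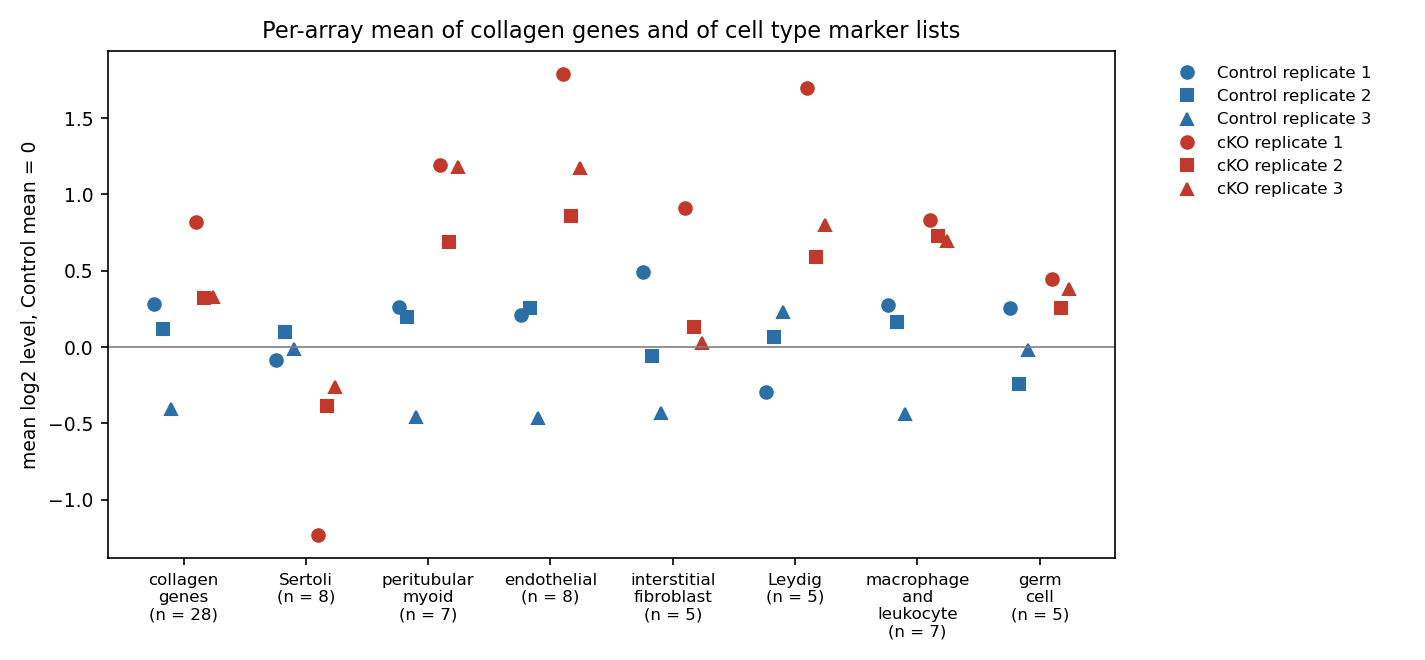
Vertical axis: mean normalised log2 level of the tested genes of each list on each array, with the mean of the 3 Control arrays set to 0; n is the number of genes, blue is Control, red is cKO and symbols give the replicate number. For the collagen genes cKO replicate 1 is highest at 0.82 and Control replicate 3 lowest at -0.40. All cKO arrays lie above all Control arrays for the endothelial, peritubular myoid, Leydig, and macrophage and leukocyte lists, and below them for the Sertoli list.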

How the data were processed

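RNA of 6 samples was labelled and hybridised to Illumina bead arrays. Per the file headers, each deposited scanner table gives the intensity of a probe averaged over its beads, their spread, the bead count and a detection score from 0 to 1. The submitters' processing notes name BeadStudio and give no version. The deposited series table holds log2 values, which were checked to be log2 intensities scaled to each array's 75th percentile and then centred per probe on the median of the 6 arrays. This relation joined all 45281 scanner probes to annotated probe IDs. Which tool did this scaling is not given in the sources.

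The neqc function of limma 3.58.1 (R 4.3.3, offset 16) corrected the background and applied quantile normalisation. Probes above background on at least 3 of 6 arrays entered a model of group alone (lmFit, eBayes), with two-sided p-values adjusted by Benjamini-Hochberg over all 21805 of them. The fit was tested on simulated data. All adjusted p-values are limma's. A gene is read at its brightest tested probe unless stated. The number of arrays limits the precision. The collagen genes, the partner and marker lists and the tests were chosen with earlier results of these data known. Named genes were every tested type IV collagen, the 10 tested collagen genes with the smallest p, and up to 4 genes of each list with the smallest p; others named were chosen after their values were seen. Promoter sequences are RefSeq's, on GRCm38.p6; probe positions are not used here.

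Both groups carry replicate numbers 1 to 3. Arrays with the same number deviated together from their group means, with correlations of 0.262, 0.410 and 0.473, so same-numbered samples were treated as pairs, from these data only, and entered as a block in an alternative. Other alternatives changed the background correction, the normalisation, the source of values, the filter, the probes per gene and the arrays.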

Additional observations from a re-analysis of the deposited data

How the results depend on the processing

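No collagen probe was called in any of 15 alternatives, whose smallest adjusted p was 0.117. The 11 named collagen genes kept their direction in 162 of 163 cases, a case being 1 gene in 1 alternative. The exception was Col4a4, which ranged from -0.48 to 0.07 over the single-array omissions. The filters, 1 probe per gene and the replicate block cannot change a gene's difference, so the direction was fixed in those alternatives. The genes were also partly chosen for the smallest p in these same data, so the count does not measure robustness. Col4a1, Col4a2 and Col4a5 were at least 1.19, 1.32 and 1.25 higher in each alternative. The median of the tested collagen probes, 0.30, was 0.06 with no filter on dim probes, 0.46 at most, and -0.021 once cKO replicate 1 and Control replicate 3 were both left out. Counts added after seeing the data were also repeated. Collagen probes higher without overlap numbered 5 to 17, against 7 with all arrays (8.04% of all tested probes). The 17 came when Control replicate 1 was left out, where the share of all probes was also highest. Without both arrays there were 7, beside 12.1%. Groups separate more easily with fewer arrays, so these counts cannot be compared across settings. Those higher at an unadjusted p under 0.05 numbered 5 to 11, against 9 with all arrays (4.63% of all tested probes). Without both arrays there were 5, beside 2.64%.

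The number of probes called over all tested probes depended on the setting. The 31 calls became 9 with the other background correction (normexp, offset 50), 13 with none, 43 with median scaling, 26 with the deposited log2 values, 1 with no filter, 27 with detection on all 6 arrays, 56 with 1 probe per gene, 0 with the replicate block (at an unadjusted p under 0.05, 1975 higher and 1282 lower), 0 to 16 with 1 array left out, and 6 without both arrays. The 31 included none that was lower, where 383 had an unadjusted p under 0.05. The replicate block changed no other call than those over all probes and that of Tgm2, whose adjusted p was 0.0835. Tgm2 also missed the threshold with normexp (0.0507), no filter (0.189) and without both arrays (0.0737), and Robo4 passed it in 4 of 15 alternatives.

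Without both arrays, differences changed sign for Cyp11a1 (-0.18), Itgav (-0.17), Itgb1 (-0.12), Mep1b (-0.25), Mfap5 (-0.23), Pcolce2 (-0.13), Pi16 (-0.24) and Pxdn (-0.00851). Over the single-array omissions Itgb1 ranged from -0.088 to 0.48, Mep1b from -0.23 to 0.22, Mfap5 from -0.044 to 0.68, Pdgfra from -0.49 to 0.059 and Pxdn from -0.045 to 0.17. Tnp1 was at 0.076 with median scaling and 0.052 with the deposited values. Leaving out 1 array moved 5 of 11 named collagen genes (Col4a3, Col4a4, Col6a1, Col9a2, Col23a1) and 26 of 51 named partner and marker genes by over 1.5 times, none of them called. The cause of these changes was not tested. With 3 arrays a group, and most untested collagens at background, differences in dim collagens were not measurable.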
